A study of Mus musculus with 15 samples.

Results

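The 49 cell division genes described here were taken from a list of gene symbols, and no cut on the measured values was used to pick them. The list was, however, chosen with earlier results of these data known. All 49 were found among the 44788 symbols measured. By their known roles, 17 act in S phase, 23 act in mitosis, 6 are G1 cyclins and kinases, and 3 are inhibitors of cyclin-dependent kinases. RNA-Seq was carried out on whole stomachs of C57BL/6 mice at 15 timepoints, with 1 library each, in fetal mice daily from E12.5 to E18.5 (embryonic days), in newborns at D1, D3 and D5 (days of age), and then weekly from W1 to W3 and at W6 and W8 (weeks of age). No treatment or genetic change was applied, and the labels do not say whether stomachs were pooled. The study's methods describe, without naming the RNA, several fetal stomachs combined per replicate up to E17.5, a single stomach later, and biological replicates at every timepoint, so whether a deposited value stands for 1 replicate or for several is not stated in the sources used here. The timepoints were grouped into the RNA phases of the study, Ph1 (E12.5 to E17.5, n = 6), Ph2 (E18.5 to W2, n = 6) and Ph3 (W3, W6 and W8, n = 3). The study also states, without naming the RNA, that stomachs up to W2 were taken without regard to sex and later ones from males. Ph3 would then differ from Ph1 and Ph2 in sex as well as in age. Values are FPKM (fragments scaled to transcript length and library total), a level per length, as the authors deposited them.

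A dividing cell passes through G1, copies its DNA in S phase, and after G2 separates the copies in mitosis. D-type cyclins with Cdk4 or Cdk6, and E-type cyclins with Cdk2, phosphorylate the RB protein, which frees E2F factors to switch on S phase genes, while the mitotic genes are switched on later under B-Myb and FOXM1. In the grown stomach, division is largely kept to the isthmus of the gastric glands and to the basal layer of the forestomach, whereas in the fetal organ the mesenchyme, the muscle and the epithelium all grow.

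With 1 library per timepoint given here, no spread between replicates can be had at any age, so timepoints stood in for replicates of their phase, and the spread of a phase also holds its change with age. The phases were themselves drawn from these libraries. The files give a lower and an upper 95% bound for each value, which cover counting error only, and read depth is not stated in them. The bounds of the members lay a median of 5.26% from the value at E12.5 and 11.9% at W6, and were widest for Ccne2 at W8 (46.7% of 0.365 FPKM). The 11 stomach markers (Barx1, Sox2, Gata4, Cldn18, Gkn1, Gkn2, Tff1, Muc5ac, Atp4a, Atp4b and Pgc) were all at or above 1 FPKM in every library. Marker sums of other cells changed with age: 4 epithelial markers summed to 381 to 1514 FPKM in Ph1 and 2225 to 2873 in Ph3, 4 mesenchymal markers to 1383 to 2906 and 189.97 to 1195, 4 smooth muscle markers to 1009 to 4170 and 1304 to 5166, 5 leukocyte markers to 21.7 to 59.4 and 73.6 to 124, and 5 pancreatic markers to 3.46 to 13.6 and 74.9 to 98.5. Most of the leukocyte sum was C1qa and Lyz2, while Ptprc was at 0.874 to 1.61 FPKM in Ph1 and 0.965 to 1.27 in Ph3. The other leukocyte markers, Cd3e and Cd79a, stayed below 1 FPKM in every library. Most of the pancreatic sum in Ph3 was Cela1 (72.4 FPKM at W3, 96.0 at W6 and 85.5 at W8). Cpa1 of the same list went the other way, from up to 6.40 FPKM in Ph1 to at most 0.186 in Ph3. The 10 highest genes took 11.2% of the FPKM sum at E14.5 and 53.2% at W6. Members are also given after median-ratio scaling, in which each library is divided by its median ratio to the geometric mean of all libraries (factors of 1.27 at E14.5 and 0.577 at W6).

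Almost all members were highest in the fetal stomach, and the kinase inhibitor Cdkn1a went the other way. A further step down from Ph2 to Ph3 depended on the scaling. As deposited 37 members were lower in Ph3 (limma, adjusted p under 0.01), against 37.4% of tested genes. With median-ratio scaling 6 of 49 were, near the 10.4% of tested genes. In the moderated F test across the 3 phases (limma, adjusted p under 0.01), 48 of 49 members differed, against 70.8% of the 16902 tested genes, and the exception was Cdkn2c (adjusted p = 0.228). Every Ph1 value was above every later value in 45 of 49 members, against 21.5% of tested genes. These were all 23 mitotic genes, all 6 G1 genes and 16 of 17 S phase genes, the exception being Ccne2. With median-ratio scaling the same held in 43 members, against 9.67% of tested genes, and Cenpf and Ccnd1 were then further exceptions. In a bulk sample, fewer dividing cells and less RNA of these genes per cell cannot be told apart.

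**Figure D1:**
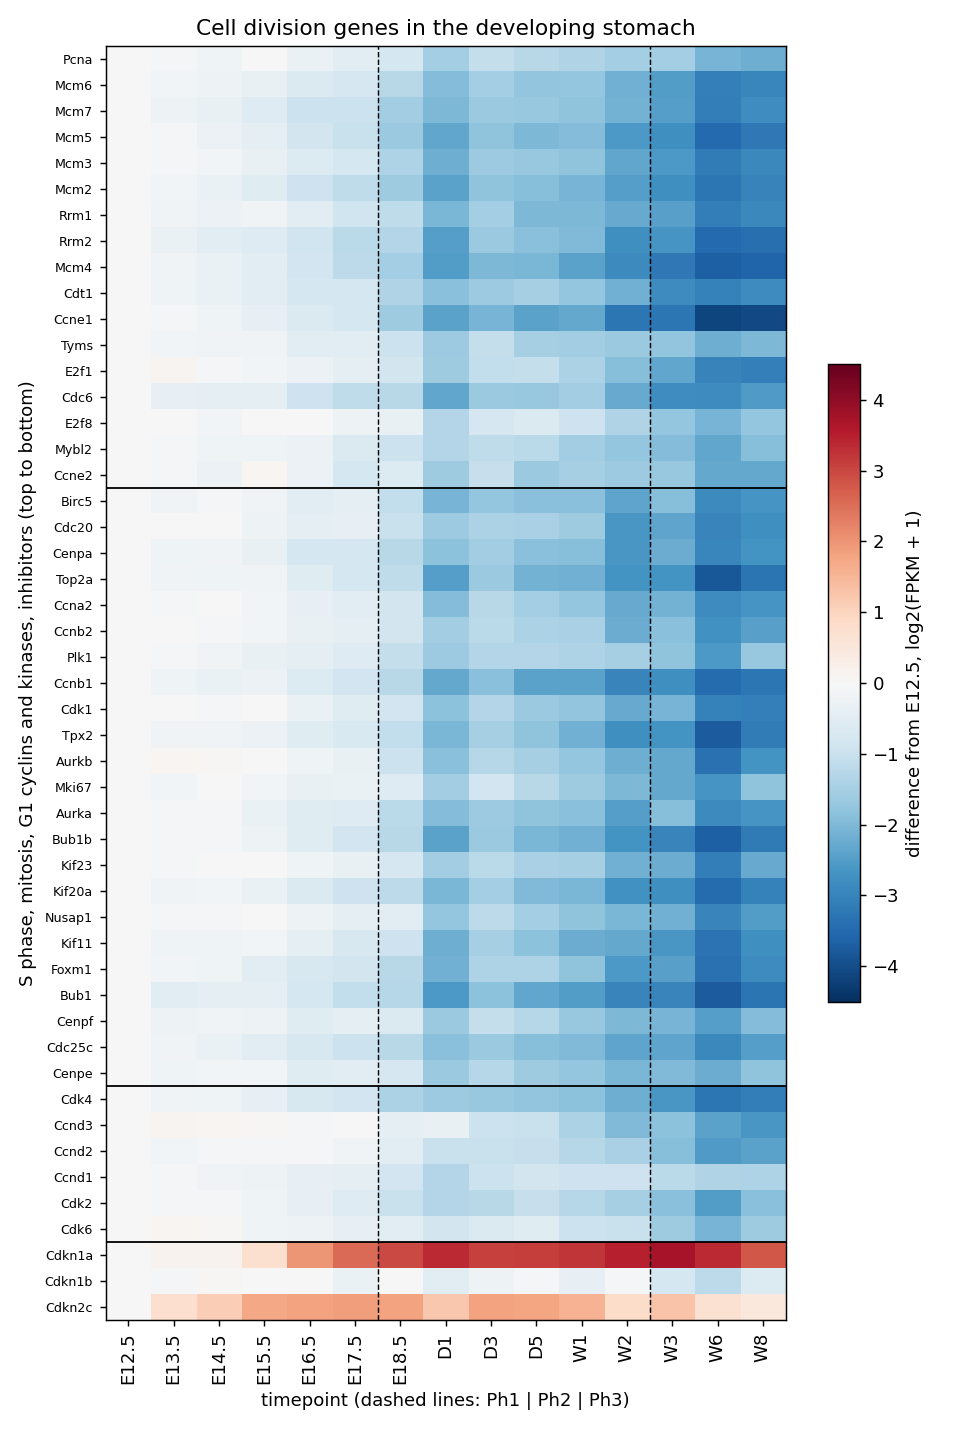
Colour gives the difference of log2(FPKM + 1) from the value at E12.5 for each of the 49 members (vertical axis, in 4 role groups separated by lines and ordered by mean FPKM) at the 15 timepoints (horizontal axis, phases separated by dashed lines). The S phase, mitotic and G1 genes darken toward W6, most S phase and mitotic genes with a dip at D1, and Cdkn1a and Cdkn2c rise well above their E12.5 level.

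The S phase and mitotic genes lost most of their level before and around birth. Relative to E12.5, the median S phase gene stood at 84.0% at E14.5, 56.6% at E17.5, 39.2% at E18.5 and 22.9% at D1. The median mitotic gene stood at 91.8%, 66.7%, 46.8% and 24.3% at the same ages. Both medians were thus above 50% at E17.5 and below it at E18.5, while with median-ratio scaling the mitotic median was still at 53.9% at E18.5 and the S phase median at 45.2%. At W6 the medians were 10.3% and 10.1%, or 22.7% and 22.2% with median-ratio scaling. As deposited, the lowest value fell at W6 in 14 of 17 S phase genes and 22 of 23 mitotic genes. With scaling it fell at W6 in 7 S phase genes and at W8 in another 7, and at W6 in 13 mitotic genes and at W2 in 8. The G1 genes kept more of their level, with a median of 60.1% at E18.5, 44.1% at D1 and 15.9% at W6 (34.8% with scaling).

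**Figure D2:**
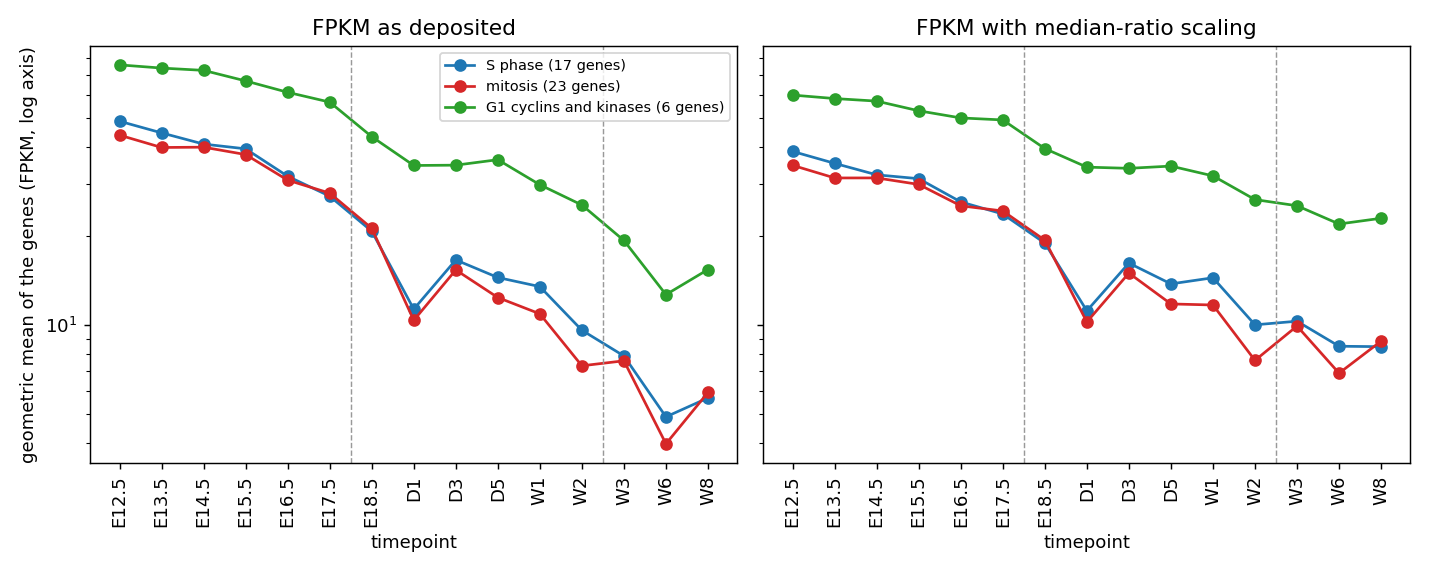
Geometric mean FPKM (log axis) of the S phase (blue), mitotic (red) and G1 (green) genes at each timepoint, as deposited (left) and with median-ratio scaling (right), with 1 library per point and dashed lines between the phases. The S phase mean was 48.8 FPKM at E12.5, 11.3 at D1 and 4.90 at W6 as deposited, and the step from W2 to W6 is smaller with scaling (from 10.02 to 8.48).

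The genes are now described by role, and each series of values follows the order of the timepoints (E12.5 to E17.5 by day in Ph1, then E18.5, D1, D3, D5, W1 and W2 in Ph2, then W3, W6 and W8 in Ph3). Where phase values are given, they are means ± SD over these 6, 6 and 3 timepoints.

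Among the regulators of S phase entry, Ccne1 (cyclin E1, which activates Cdk2) had the largest difference between Ph3 and Ph1 of the S phase group. Its values were 38.9, 36.3, 33.5, 29.7, 24.3 and 22.1 in Ph1, 12.1, 6.57, 8.38, 6.50, 7.08 and 3.20 in Ph2 and 3.14, 1.25 and 1.39 in Ph3. It fell at every timepoint but D3 and W1 up to W6, and its highest value was 31.1 times its lowest (14.9 times with median-ratio scaling). Ccne2, the second E-type cyclin, was far lower at 4.85 ± 1.15 FPKM in Ph1, 1.74 ± 0.912 in Ph2 and 0.594 ± 0.395 in Ph3. Its E17.5 value (2.88 FPKM, bounds 2.39 to 3.37) was below its E18.5 value (3.40, bounds 2.87 to 3.94), with overlapping bounds, so its phases overlap. E2f1, an E2F that activates transcription, was at 23.7 ± 3.16 FPKM in Ph1, 10.1 ± 2.95 in Ph2 and 2.95 ± 1.18 in Ph3. E2f8, an atypical E2F that represses, was at 13.95 ± 0.899 FPKM in Ph1, 7.71 ± 2.37 in Ph2 and 3.31 ± 0.562 in Ph3. Mybl2 (B-Myb, a factor for mitotic genes that is itself made in S phase) was at 13.3 ± 2.12 FPKM in Ph1, 5.70 ± 1.24 in Ph2 and 2.96 ± 0.613 in Ph3. E2f8 was at 14.6 FPKM at E12.5, 14.6 at E16.5 and 12.3 at E17.5, where its bounds (11.4 to 13.3) lay below those at E12.5 (13.55 to 15.6). E2f1 was higher than E2f8 in Ph1 and lower at W8 (2.22 against 3.64 FPKM).

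The licensing genes load the MCM helicase onto replication origins in G1. Cdc6, a loading factor, was at 15.9 ± 4.70 FPKM in Ph1, 6.13 ± 2.003 in Ph2 and 2.64 ± 0.369 in Ph3. Cdt1, the factor that brings the helicase, was at 35.3 ± 8.11 FPKM in Ph1, 13.8 ± 2.80 in Ph2 and 5.47 ± 0.568 in Ph3. Both were already lower at E16.5 than at E12.5 (11.6 against 22.96 FPKM for Cdc6). The 6 MCM genes, whose products form the helicase, all had lower means at each later phase. Mcm2 was at 59.7 ± 18.3 FPKM in Ph1, 19.5 ± 4.81 in Ph2 and 9.46 ± 1.84 in Ph3. Mcm3 was at 71.2 ± 15.2 FPKM in Ph1, 24.3 ± 6.20 in Ph2 and 11.2 ± 2.34 in Ph3. Mcm4 was at 47.7 ± 14.1 FPKM in Ph1, 13.7 ± 4.82 in Ph2 and 4.93 ± 1.06 in Ph3. In these genes no Ph2 value reached any Ph1 value, and their D1 values were the lowest of the timepoints up to W1. Mcm5 was at 79.96 ± 21.3 FPKM in Ph1, 24.97 ± 5.80 in Ph2 and 11.1 ± 3.24 in Ph3. Mcm6 was at 102 ± 20.3 FPKM in Ph1, 38.5 ± 8.98 in Ph2 and 17.2 ± 3.70 in Ph3. Mcm7 was at 89.4 ± 24.5 FPKM in Ph1, 34.7 ± 5.38 in Ph2 and 17.1 ± 3.98 in Ph3. Mcm6 and Mcm7 were the highest of the 6 at E12.5 (127 and 123 FPKM) and Mcm4 the lowest (65.4), and at W8 Mcm7 (16.8) and Mcm6 (15.9) were again above the others, with overlapping bounds, and Mcm4 (4.47) the lowest.

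Of the genes for DNA synthesis, Pcna (the sliding clamp of the DNA polymerases, chr2:132249286-132253180 on GRCm38) had the highest mean of the S phase group. Its values were 305, 292, 266, 307, 250.1 and 218 in Ph1, 175, 105, 146, 127, 119.7 and 105 in Ph2 and 104, 70.0 and 65.6 in Ph3. It stayed high to E15.5 and then fell, and it was still at 65.6 FPKM at W8. Rrm1, the large subunit of ribonucleotide reductase, was at 58.6 ± 12.2 FPKM in Ph1, 20.4 ± 6.88 in Ph2 and 9.62 ± 2.64 in Ph3. Rrm2, the small subunit, was at 54.3 ± 15.9 FPKM in Ph1, 19.9 ± 7.39 in Ph2 and 8.13 ± 3.12 in Ph3. Rrm2 was the higher of the pair at E12.5, D5 and W1 and the lower at every other timepoint, with overlapping bounds at some, such as E13.5 and D3. Tyms (thymidylate synthase) had the smallest difference between Ph3 and Ph1 of the group, and its values were 26.7, 24.4, 24.03, 23.7, 18.9 and 19.0 in Ph1, 13.2, 7.89, 12.3, 8.93, 8.42 and 7.59 in Ph2 and 7.05, 4.999 and 5.76 in Ph3. Its highest value was 5.34 times its lowest, against a median of 9.67 times over the 17 S phase genes. With median-ratio scaling these were 2.71 and 4.87 times.

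E2F factors bind motifs in the promoters of S phase genes, so the RefSeq promoter windows (GRCm38.p6, 250 bases before and 50 bases from the transcription start on) were searched on both strands for 3 E2F motifs, TTTCCCGC, TTTGGCGC and TTTCGCGC. Windows were matched for 39 of 49 members. For Mybl2, E2f1, Cdc6, E2f8 and Kif23 the start used lay 332 to 547 bases from the start of the measured gene. Whether these windows cover the promoter in use was not tested. An exact match was found in 6 of 15 S phase windows (Cdc6, Cdt1, Mcm3, Mcm5, Mcm6 and Mcm7), in 1 of 17 mitotic windows (Cdk1) and in 1 of 4 G1 windows (Cdk2), against 1.84% of all 32851 windows. CCAAT was found in 9 of 15 S phase windows, against 37.4% of all. Mcm5 and Mcm6, the pair with the most E2F matches that lie before the start, are shown from 190 bases before the start to 30 bases from it on, with E2F and CCAAT matches in capitals.
Mcm5 (chr8:75109319-75109538, plus strand): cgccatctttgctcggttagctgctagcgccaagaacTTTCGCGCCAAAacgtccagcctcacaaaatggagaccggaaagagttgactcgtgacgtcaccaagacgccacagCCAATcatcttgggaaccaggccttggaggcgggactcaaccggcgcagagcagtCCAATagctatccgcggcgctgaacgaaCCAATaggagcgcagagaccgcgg
Mcm6 (chr1:128359676-128359895, minus strand): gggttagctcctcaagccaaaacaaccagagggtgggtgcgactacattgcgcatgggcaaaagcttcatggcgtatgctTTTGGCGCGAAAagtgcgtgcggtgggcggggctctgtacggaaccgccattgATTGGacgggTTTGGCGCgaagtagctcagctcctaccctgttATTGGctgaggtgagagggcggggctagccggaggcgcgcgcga
In both, a pair of E2F matches on opposite strands overlaps, starting at bases -153 and -149 from the start in Mcm5 and at -110 and -106 in Mcm6, and Mcm6 holds another at -47. A match describes the letters only.

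Among the mitotic genes, Mki67 (the Ki-67 coat of mitotic chromosomes, the usual histological marker of dividing cells, chr7:135689782-135716412) had values of 41.1, 37.3, 40.7, 37.5, 32.6 and 32.9 in Ph1, 27.0, 13.1, 21.98, 16.7, 12.8 and 9.50 in Ph2 and 7.48, 5.67 and 11.1 in Ph3. It stayed between 32.6 and 41.1 FPKM through Ph1, and its W8 value (bounds 10.53 to 11.6) was above its W6 value (bounds 5.30 to 6.04). Top2a (topoisomerase IIα, which untangles the copied chromosomes) had values of 107, 95.5, 94.2, 97.1, 73.0 and 61.1 in Ph1, 47.8, 18.7, 33.0, 23.9, 23.3 and 15.7 in Ph2 and 15.7, 6.76 and 9.99 in Ph3. Top2a had fallen further than Mki67 at W8, to 9.29% of its E12.5 level against 27.0%.

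The cyclins and the kinase that start mitosis all had lower means at each later phase. Ccna2 (cyclin A2, used in S phase and G2) was at 66.9 ± 9.10 FPKM in Ph1, 25.5 ± 9.78 in Ph2 and 12.47 ± 3.60 in Ph3. Ccnb1 (cyclin B1) was at 59.9 ± 12.502 FPKM in Ph1, 17.1 ± 8.01 in Ph2 and 7.82 ± 2.29 in Ph3. Ccnb2 (cyclin B2) was at 58.8 ± 7.15 FPKM in Ph1, 24.2 ± 7.73 in Ph2 and 12.3 ± 4.09 in Ph3. Ccnb1 was higher than Ccnb2 at E12.5 (76.7 against 65.0 FPKM) and lower at every timepoint from E16.5 on. Cdk1, the kinase that both B cyclins activate, was at 48.4 ± 7.14 FPKM in Ph1, 17.6 ± 6.65 in Ph2 and 7.66 ± 3.57 in Ph3. Cdc25c, a phosphatase that activates Cdk1, was at 9.57 ± 2.54 FPKM in Ph1, 2.99 ± 1.09 in Ph2 and 1.35 ± 0.430 in Ph3. Cdc20, which turns on the ubiquitin ligase that ends mitosis, was at 89.1 ± 11.2 FPKM in Ph1, 33.6 ± 10.99 in Ph2 and 14.8 ± 3.41 in Ph3. Foxm1, a factor that switches on mitotic genes, was at 20.7 ± 4.84 FPKM in Ph1, 7.61 ± 2.78 in Ph2 and 2.91 ± 1.19 in Ph3. Foxm1 fell steadily within Ph1, from 26.9 to 14.6 FPKM.

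Mitotic kinases and checkpoint genes also had lower means at each later phase, by different amounts. Aurka, the Aurora kinase of the spindle poles, was at 39.5 ± 6.96 FPKM in Ph1, 12.97 ± 3.95 in Ph2 and 8.01 ± 3.27 in Ph3. Aurkb, the Aurora kinase of the chromosomal passenger complex, was at 46.2 ± 5.13 FPKM in Ph1, 16.0 ± 5.20 in Ph2 and 6.46 ± 2.60 in Ph3. Plk1, a kinase for mitotic entry and spindle assembly, was at 53.98 ± 8.05 FPKM in Ph1, 24.3 ± 3.38 in Ph2 and 15.4 ± 4.91 in Ph3. Plk1 kept 34.3% of its E12.5 level at W2, the highest share of the group, and its gene overlaps Ern2, which rose from 1.74 FPKM at E12.5 to 41.0 at W8. How far reads of Ern2 were counted for Plk1 was not tested. Bub1, a spindle checkpoint kinase, was at 16.3 ± 4.45 FPKM in Ph1, 4.497 ± 2.51 in Ph2 and 1.49 ± 0.644 in Ph3. Bub1b (BubR1 of the same checkpoint) had the largest difference between Ph3 and Ph1 of the mitotic group, with values of 46.4, 44.1, 43.6, 39.8, 31.1 and 24.8 in Ph1, 19.2, 7.96, 13.8, 10.3, 9.54 and 6.39 in Ph2 and 5.03, 2.68 and 4.24 in Ph3. Birc5 (survivin, a partner of Aurora B) had the highest mean of the group, with values of 128, 114, 119, 114, 91.8 and 95.04 in Ph1, 58.9, 29.5, 37.6, 33.7, 33.9 and 23.9 in Ph2 and 32.9, 16.8 and 19.3 in Ph3. Birc5 was higher at D3 (1.28 times its D1 level) and at W3 (1.37 times its W2 level), and as deposited it was lowest at W6.

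The remaining mitotic genes build the spindle and the kinetochore. Kif11, the motor that pushes spindle poles apart, was at 25.3 ± 4.47 FPKM in Ph1, 8.41 ± 3.92 in Ph2 and 3.32 ± 1.05 in Ph3. Kif20a, a motor needed for cytokinesis, was at 31.9 ± 7.58 FPKM in Ph1, 10.49 ± 4.14 in Ph2 and 3.95 ± 1.204 in Ph3. Kif23, a motor of the central spindle, was at 30.7 ± 2.78 FPKM in Ph1, 11.99 ± 4.17 in Ph2 and 5.05 ± 1.84 in Ph3. Among these motors Kif20a was the highest at E12.5 and Kif23 at W8. Tpx2, which activates Aurora A on the spindle, was at 48.4 ± 8.57 FPKM in Ph1, 16.3 ± 6.75 in Ph2 and 5.89 ± 2.44 in Ph3. Nusap1, a microtubule-binding spindle protein, was at 29.7 ± 3.33 FPKM in Ph1, 11.9 ± 5.59 in Ph2 and 4.88 ± 1.62 in Ph3. Cenpa, the histone H3 variant that marks centromeres, was at 85.6 ± 19.0 FPKM in Ph1, 30.7 ± 9.24 in Ph2 and 17.4 ± 4.72 in Ph3. Cenpf, a large kinetochore protein, was at 8.80 ± 1.29 FPKM in Ph1, 3.65 ± 1.66 in Ph2 and 1.61 ± 0.479 in Ph3. Cenpe, the kinetochore motor, had the smallest difference between Ph3 and Ph1 of the mitotic group, with values of 10.02, 8.53, 9.20, 9.002, 6.57 and 6.78 in Ph1, 5.504, 2.44, 3.53, 2.65, 2.29 and 1.65 in Ph2 and 1.76, 1.35 and 2.16 in Ph3. Cenpe, Cenpf and Cdc25c were the lowest mitotic genes throughout Ph1, at or below 12.97 FPKM.

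Promoters of mitotic genes are known for the CHR element, often beside CCAAT boxes. A CHR motif (TTTGAA or TTCGAA, either strand) was found in 13 of 17 mitotic windows, in 3 of 15 S phase windows and in 19.2% of all windows. CCAAT was found in 15 of 17 mitotic windows. Cdk1 and Mcm7 were the members with all 3 motifs. The windows of Cdk1, of Ccnb2, and of Top2a, which has the most CHR matches, are shown over the same stretch, with matches in capitals.
Cdk1 (chr10:69352883-69353102, minus strand): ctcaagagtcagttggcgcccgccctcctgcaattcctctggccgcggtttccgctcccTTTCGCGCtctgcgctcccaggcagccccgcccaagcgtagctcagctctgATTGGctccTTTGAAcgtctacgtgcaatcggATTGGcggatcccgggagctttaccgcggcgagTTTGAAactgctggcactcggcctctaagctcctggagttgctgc
Ccnb2 (chr9:70421525-70421744, minus strand): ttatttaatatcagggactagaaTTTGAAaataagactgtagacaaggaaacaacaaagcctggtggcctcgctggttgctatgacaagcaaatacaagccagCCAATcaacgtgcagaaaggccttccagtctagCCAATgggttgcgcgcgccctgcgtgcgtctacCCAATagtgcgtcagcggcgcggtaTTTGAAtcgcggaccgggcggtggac
Top2a (chr11:99024160-99024379, minus strand): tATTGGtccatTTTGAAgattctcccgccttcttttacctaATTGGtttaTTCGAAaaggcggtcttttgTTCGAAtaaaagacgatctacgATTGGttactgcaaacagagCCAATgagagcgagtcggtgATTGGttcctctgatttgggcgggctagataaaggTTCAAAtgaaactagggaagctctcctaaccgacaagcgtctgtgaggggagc
CHR matches start at -71 and -15 in Cdk1, at -167 and 4 in Ccnb2, and at -179, -140, -120 and -23 in Top2a. Neither the E2F nor the CHR motif was found in the windows of Cdkn1a, Cdkn1b and Cdkn2c. The Cdkn1a window holds none of the 3 motifs and is shown for comparison.
Cdkn1a (chr17:29090789-29091008, plus strand): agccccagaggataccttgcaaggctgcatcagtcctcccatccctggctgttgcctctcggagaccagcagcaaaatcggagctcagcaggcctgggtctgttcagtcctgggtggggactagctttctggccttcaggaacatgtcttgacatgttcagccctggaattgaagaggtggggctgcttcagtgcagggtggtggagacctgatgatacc

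The G1 cyclins and kinases fell at different times. Cdk4, the kinase partner of the D cyclins (chr10:127063536-127067375), had the highest mean over all timepoints of the 49 members and the largest difference between Ph3 and Ph1 of its group, although in Ph3 the means of Cdkn1a and Pcna were above its own. Its values were 587, 529.9, 508, 457, 352 and 325 in Ph1, 219.8, 188, 179.7, 170.4, 161 and 128 in Ph2 and 93.7, 60.8 and 66.3 in Ph3. Cdk4 was lower at each successive timepoint from E12.5 to W6. Cdk6, the second kinase partner, was at 6.04 ± 0.878 FPKM in Ph1, 3.57 ± 0.673 in Ph2 and 1.28 ± 0.414 in Ph3. Cdk2, the partner of the E and A cyclins, was at 38.7 ± 5.60 FPKM in Ph1, 18.55 ± 2.48 in Ph2 and 9.92 ± 2.56 in Ph3. Cdk4 exceeded Cdk6 at every timepoint (587 against 6.58 FPKM at E12.5 and 66.3 against 1.52 at W8).

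The D cyclins, which link growth signals to G1 progress, were ordered Ccnd3, Ccnd2 and Ccnd1 through Ph1. Ccnd3 had values of 191, 209, 202, 197, 185 and 189.8 in Ph1, 145, 149, 97.0, 94.9, 69.8 and 47.5 in Ph2 and 52.7, 35.2 and 30.4 in Ph3. It was lower at E18.5 (bounds 138 to 152) than at E17.5 (bounds 181 to 199), showed no further drop at D1, and fell again between D1 and W2. Ccnd2 had values of 109, 99.99, 104, 105, 104 and 97.6 in Ph1, 77.8, 53.6, 54.7, 52.9, 44.5 and 39.04 in Ph2 and 28.1, 17.7 and 19.97 in Ph3. Ccnd2 was flat within Ph1, between 97.6 and 109 FPKM. Ccnd1 had values of 52.2, 50.1, 46.5, 44.1, 40.3 and 38.3 in Ph1, 27.9, 20.5, 26.1, 29.4, 27.2 and 26.6 in Ph2 and 21.7, 19.7 and 19.1 in Ph3. It had the smallest difference between Ph3 and Ph1 of the G1 group, and from D3 to W8 it stayed between 19.1 and 29.4 FPKM. At W6 Ccnd1 (bounds 18.46 to 21.0) and Ccnd2 (bounds 16.7 to 18.6) were no longer apart beyond their bounds.

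The 3 inhibitors behaved differently from each other. Cdkn1a (p21, a p53 target that blocks cyclin-dependent kinases, chr17:29090986-29100722) had values of 14.3, 16.0, 16.2, 24.2, 60.1 and 87.7 in Ph1, 117, 157, 128, 129.6, 141 and 173 in Ph2 and 199, 157 and 104 in Ph3. It rose mainly between E14.5 and E18.5 and was highest at W3, 13.9 times its lowest value (at W6 with median-ratio scaling, 24.05 times). Cdkn1b (p27, an inhibitor of Cdk2 with cyclin E or A) had values of 24.7, 23.1, 25.4, 24.1, 24.5 and 20.1 in Ph1, 24.3, 17.0, 20.9, 23.9, 19.0 and 24.1 in Ph2 and 13.7, 10.48 and 15.8 in Ph3. Its Ph1 and Ph2 values overlapped, and as deposited all 3 Ph3 values were below every earlier value. Cdkn2c (p18, an inhibitor of Cdk4 and Cdk6) had values of 4.56, 8.44, 10.96, 17.8, 18.3 and 19.4 in Ph1, 18.51, 11.8, 18.6, 18.05, 15.47 and 8.93 in Ph2 and 12.4, 7.997 and 6.66 in Ph3. It rose to E17.5, held to D5 apart from D1, and then came down, so its phase means hide a fetal rise and a later fall. Cdkn1a was below Cdkn1b up to E14.5 and above it from E16.5 on, while at E15.5 the bounds of the 2 genes overlapped (21.7 to 26.8 and 22.4 to 25.7).

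**Figure D3:**
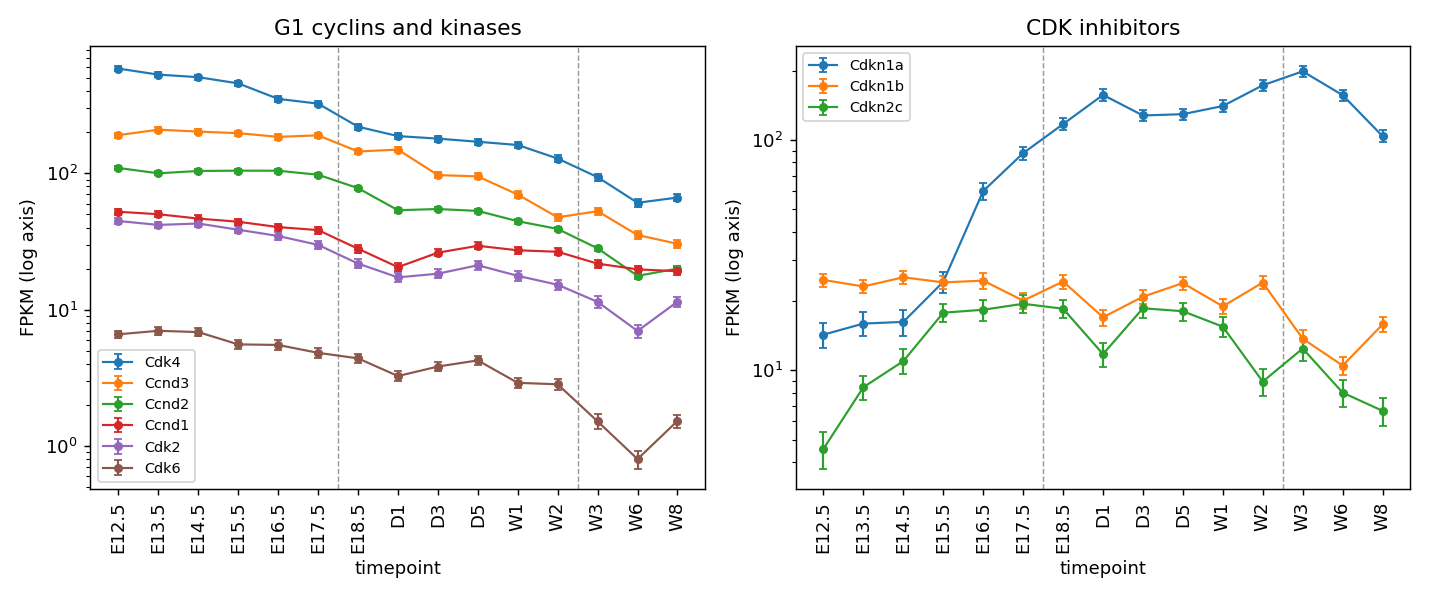
FPKM (log axis) of the G1 cyclins and kinases (left) and the kinase inhibitors (right) at each timepoint, with the deposited 95% bounds as bars and dashed lines between the phases. Cdk4 falls from 587 to 60.8 FPKM at W6, Ccnd3 falls at E18.5 and again after D1, and Cdkn1a climbs from 14.3 FPKM at E12.5 to 199 at W3 while Cdkn1b stays between 10.48 and 25.4.

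The first comparison asks what changed between the fetal phase and the phase around birth and suckling. In Ph2 against Ph1, 46 members were lower (limma contrast, adjusted p under 0.01), against 35.1% of tested genes, and Cdkn1a alone was higher, against 13.2%. The lower members were all 17 S phase genes, all 23 mitotic genes and all 6 G1 genes. The median difference on the log2(FPKM + 1) scale, which understates low genes, was -1.31 for S phase, -1.46 for mitosis and -0.99 for the G1 genes, beside -0.22 for all tested genes. Ccne1 fell most, with a difference of -1.99 ± 0.24 (SE) and adjusted p = 6.27e-05. The Cdk6 difference, -0.63 ± 0.12 (SE) with adjusted p = 0.000728, was the smallest of those called. Cdkn1a differed by 2.27 ± 0.39 (SE), with adjusted p = 0.000267. Neither Cdkn1b (-0.14 ± 0.11 (SE), adjusted p = 0.300, with the sign turned to 0.14 by median-ratio scaling) nor Cdkn2c (0.28 ± 0.30 (SE), adjusted p = 0.424) passed the threshold. With median-ratio scaling, which moves the median of all genes to 0.01, again 46 members were lower, against 18.4% of tested genes, and 1 was higher, against 20.4%. Their medians were then -1.02, -1.18 and -0.70. Markers of erythroid cells moved with this comparison, with 6 markers (3 to 6 of them at or above 1 FPKM) summing to 3089 to 6179 FPKM in Ph1 and 2 to 4 of them reaching 1 FPKM and summing to 148 to 1678 in Ph2. Nearly all of these sums were globins. Of the remaining markers, Alas2 was at 7.21 to 14.1 FPKM in Ph1 and 0.559 to 7.51 in Ph2. Klf1, a transcription factor of red cell precursors, was at 0.634 to 1.17 FPKM in Ph1 and 0.257 to 1.62 in Ph2. The part of erythroid cells in the result was not tested.

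The second comparison asks what changed after weaning. In Ph3 against Ph2, 37 members were lower (limma, adjusted p under 0.01), against 37.4% of tested genes. They were 16 of 17 S phase genes, 15 of 23 mitotic genes, 5 of 6 G1 genes and Cdkn1b. No member was higher by this test, against 577 of the 16902 tested genes. None was higher at an unadjusted p under 0.05 either, against 1180 of 16902. Medians were -0.99, -1.06 and -1.12 for the 3 groups, beside -0.43 for all tested genes. This step depended on the scaling and on single libraries. With median-ratio scaling, which leaves the median of all genes at -0.02, 6 members were lower, against 10.4% of tested genes. That count was near the share over all tested genes. The 6 were the S phase genes Ccne1 (-1.08 ± 0.26 (SE), adjusted p = 0.00499), E2f1 (-1.02 ± 0.19 (SE), adjusted p = 0.000842) and Cdt1 and the G1 genes Ccnd2, Cdk4 and Cdk6. No mitotic gene was among them. At an unadjusted p under 0.05, 12 of 23 mitotic genes were lower and 0 higher, against 4014 and 4509 of the 16902 tested genes. Ccnd1 turned from -0.36 ± 0.12 (SE) to 0.22 ± 0.12 (SE) with scaling, and neither value passed the threshold. Leaving out W6 brought the number lower from 37 to 9, and leaving out W8 brought it to 19.

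**Figure D4:**
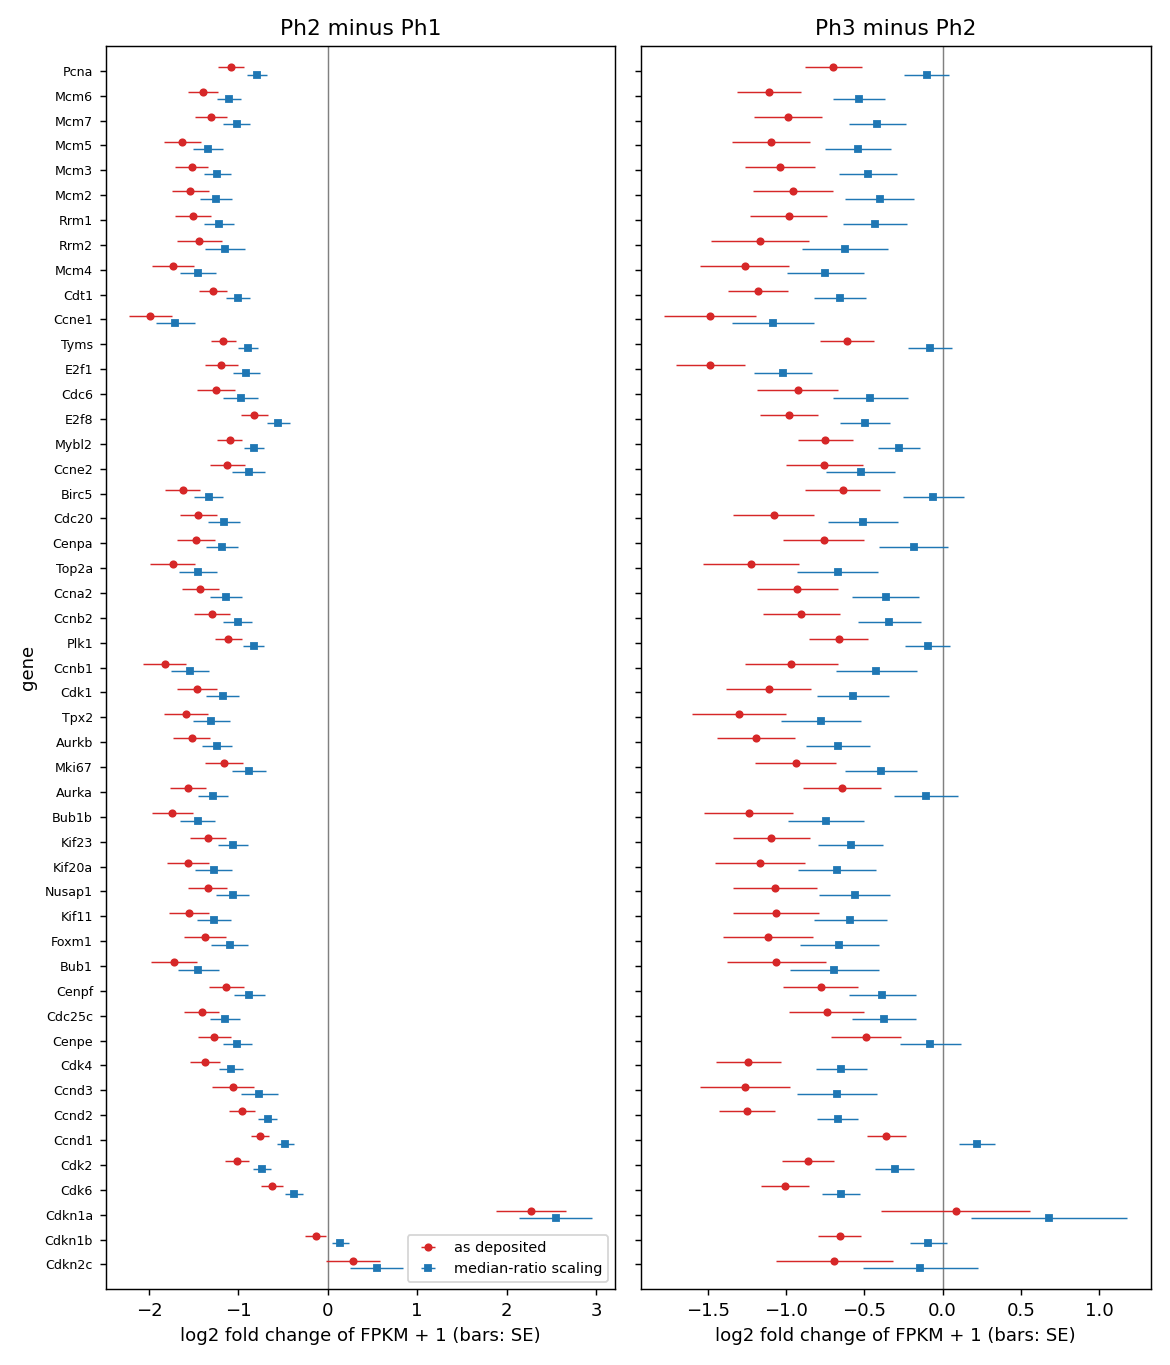
Difference between phase means of log2(FPKM + 1) for each of the 49 members, Ph2 minus Ph1 (left) and Ph3 minus Ph2 (right), as deposited (red circles) and with median-ratio scaling (blue squares), with SE from limma as bars and a line at 0. On the left all S phase, mitotic and G1 genes lie below 0 on both scales, and on the right scaling moves most of them toward 0 and moves Ccnd1 past it.

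Within Ph1, the question is whether the decline had begun before the phase ended. Over E12.5 to E17.5, 39 members fell with embryonic day (limma slope, adjusted p under 0.05), against 29.3% of tested genes, and 2 rose, against 19.5%. Those that fell were 14 of 17 S phase genes (not Ccne2, E2f8 and Pcna), 21 of 23 mitotic genes (not Kif23 and Nusap1) and 4 of 6 G1 genes (not Ccnd2 and Ccnd3). The median slope on the log2(FPKM + 1) scale was -0.17 per day for S phase, -0.11 for mitosis and -0.09 for G1 genes, beside -0.02 for all tested genes. Mcm2 had the steepest fall, -0.24 ± 0.02 (SE) per day with adjusted p = 0.00135. The rising members were Cdkn1a, by 0.54 ± 0.09 (SE) per day with adjusted p = 0.00637, and Cdkn2c, by 0.38 ± 0.06 (SE) with adjusted p = 0.00465. With median-ratio scaling 33 fell, against 24.4% of tested genes, and 2 rose, against 22.8%. Without E17.5 the number falling was 24.

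Within Ph2, from E18.5 to W2, 1 member fell with the order of the timepoints, against 0.408% of tested genes. It was Ccnd3, by -0.32 ± 0.04 (SE) per timepoint with adjusted p = 0.0453 (limma). With median-ratio scaling 0 members passed, against 0.177% of tested genes. At an unadjusted p under 0.05, 20 members fell on that scale, against 1433 of the 16902 tested genes. As deposited 24 fell at that limit, of which 17 were mitotic genes, against 2590 of 16902. By the same limit 0 members rose as deposited, against 1235 of 16902. The test has 6 timepoints, and most members were lower at D1 than at D3, so their course was not a straight line.

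Most S phase and mitotic genes dipped in the D1 library. At D1, 40 members had an upper bound below the lower bounds at both E18.5 and D3, against 9.99% of tested genes. They were 15 of 17 S phase genes (not Ccne1 and Mybl2), 22 of 23 mitotic genes (not Cdc25c), Ccnd1 of the G1 genes, and Cdkn1b and Cdkn2c. The median S phase gene stood at 55.2% of its E18.5 level at D1 and was 1.47 times as high at D3. The median mitotic gene stood at 48.9% and was 1.501 times as high at D3. Top2a, for example, went from 47.8 to 18.7 and back to 33.0 FPKM. With median-ratio scaling 39 members dipped, against 7.67% of tested genes. The bounds cover counting error only, and 1 library stands behind D1. Liver transcripts were high in that library, with Alb at 460.5 FPKM against 14.6 at E18.5 and 25.8 at D3 and Afp at 185.9 against 8.27 and 22.3, and their part in the dip was not tested. All 5 liver markers together summed to 32.0 to 154.0 FPKM in Ph1, 248 to 1170 in Ph2 and 1468 to 2397 in Ph3, where most was Apoa1 (2269.8 at W6).

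**Figure D5:**
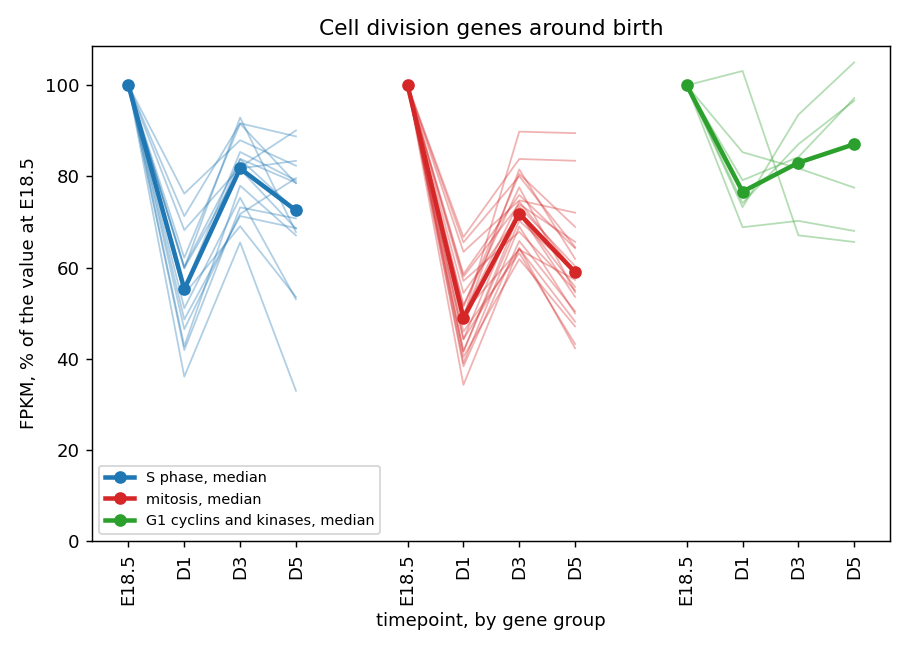
FPKM as a percentage of each gene's E18.5 value at E18.5, D1, D3 and D5 for the S phase (blue), mitotic (red) and G1 (green) genes, with 1 thin line per gene and the group median as the thick line with points. The median S phase and mitotic genes fall to 55.2% and 48.9% at D1 and are higher at D3, while the single G1 line above 100% at D1 is Ccnd3.

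At W3, when pups take solid food, few members were above their W2 level beyond their bounds. As deposited, 6 members had bounds at W3 above those at W2, against 8.82% of tested genes. They were the mitotic genes Ccnb2, Aurka, Cenpa and Birc5 and the inhibitors Cdkn1a and Cdkn2c, and no S phase or G1 gene was among them. Aurka went from 7.55 to 11.7 FPKM and Cenpa from 16.8 to 22.6. With median-ratio scaling the number was 17, of which 12 were mitotic, 2 were S phase genes (Pcna and Rrm2), 1 was Ccnd3 and 2 were the same inhibitors, against 23.8% of tested genes. The ratio of the geometric means of S phase to mitotic genes, in which the scaling cancels, was 1.11 at E12.5, 0.977 at E17.5, 1.32 at W2, 1.04 at W3 and 0.958 at W8. It was thus highest at W2 and lowest at W8, over 15 single libraries. Alb stood at 65.4 FPKM at W3 against 1.81 at W2, and the part of such transcripts was not tested.

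Other genes of the same pathways, from lists that hold no member, were mostly lower too after Ph1. In Ph2 against Ph1, 48 of 48 further S phase genes and 58 of 60 further mitotic genes were lower, against 35.1% of tested genes. By the same test (limma) 0 were higher, against 13.2% of tested genes. At an unadjusted p under 0.05 none were higher either, against 3444 of the 16902 tested genes. Their median differences were -1.20 and -1.30. In Ph3 against Ph2, 40 of the S phase genes and 43 of the mitotic genes were lower as deposited, against 37.4% of tested genes. With median-ratio scaling 8 and 6 were lower, against 10.4% of tested genes. On that scale 2 S phase genes (Gmnn and E2f2) and 1 mitotic gene (Pttg1) were higher, against 2515 of the 16902 tested genes. Cdc7, a kinase that fires origins, went from 23.8 FPKM at E12.5 to 1.47 at W8, and Uhrf1, which keeps DNA methylation through replication, from 66.7 to 5.45. Gmnn (geminin, which blocks Cdt1) and E2f2 changed least, from 54.2 to 21.5 and from 4.77 to 2.73 FPKM. Of the mitotic list, Lmnb1 (lamin B1) went from 211 to 13.2 and Cks1b, a binding partner of cyclin-dependent kinases, from 237 to 15.1. At the other end, Cdkn3, a phosphatase of these kinases, went from 16.4 to 4.52, and Pttg1 (securin) from 29.3 to 45.1 FPKM. Pttg1 was the 1 gene of these lists that was called higher in Ph3 than in Ph2 as deposited (log2 difference 0.47, adjusted p = 0.00484).

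The 17 further genes of the RB family, its E2F partners and the kinase inhibitors were mixed. In Ph2 against Ph1, 9 were lower, against 35.1% of tested genes, and 1 was higher, against 13.2%. The higher gene was Cdkn2b (p15, an inhibitor of Cdk4 and Cdk6), which was at 0.252 FPKM at E12.5, 12.04 at E18.5 and 48.0 at W8, with a log2 difference of 2.37 and adjusted p = 0.000204 (limma). Cdkn1c (p57, an imprinted inhibitor of fetal growth) went the other way, from 847 FPKM at E12.5 to 184 at D1 and 39.2 at W6. E2f3 fell from 14.46 to 1.05 FPKM at W6, and Tfdp2, a dimer partner of E2Fs, was at 9.86 at E12.5 and 9.89 at W8. Among the inhibitors, then, Cdkn1a and Cdkn2b were higher after the fetal phase and Cdkn1c was lower. Cdkn1b and Cdkn2c did not pass the contrast of Ph2 against Ph1 in either direction.

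Some values rest on genes that overlap on the genome, and whether the counting used strand is not stated. Overlapping genes at or above 1 FPKM lie at Aurka, Ccna2, Ccnd1, Ccnd3, Ccne2, Cdc20, Cdc25c, Cdk4, Cenpe, Kif20a, Nusap1 and Plk1. Elovl1, which overlaps Cdc20, rose from 21.1 FPKM at E12.5 to 127.1 at D1, while Cdc20 fell, and Ints8, which overlaps Ccne2, was above Ccne2 at every timepoint. Cdkn1a has an entry on chromosome 17 and another on an alternate scaffold, and both were summed.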

How the data were processed

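Stomach libraries of 15 timepoints were assigned by the age in their labels, and the phases (Ph1, Ph2 and Ph3) are the RNA phases of the study. The members and all gene lists were chosen with earlier results of these data known. For every gene entry, the authors deposited an FPKM with a 95% interval. The study's methods name HISAT2, StringTie and a GENCODE annotation, whereas the submitters' processing notes list FastQC, Bowtie 0.12.2 and GRCm38.p2, and the files have a Cufflinks layout with RefSeq-style identifiers, so the program used is not settled. The methods also name liver as the RNA source, where the labels and the rest of the study name stomach.

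Entries sharing a symbol were summed, and the 16902 symbols with a maximal FPKM of at least 1, all 49 members among them, were tested on log2(FPKM + 1) with limma 3.58.1 in R 4.3.3. A moderated F test across phases, contrasts between consecutive phases (threshold 0.01) and slopes within Ph1 and Ph2 (threshold 0.05) were adjusted by Benjamini-Hochberg over all 16902. The fits were tested on simulated data. Summaries and figures were made with Python 3.11.15, pandas 2.3.3, NumPy 2.4.6 and matplotlib 3.10.9. Every member is named. All timepoints are given for Mki67, Top2a, Pcna, the D cyclins and the inhibitors, and in each role group for the member with the highest mean and those with the largest and the smallest difference between Ph3 and Ph1. From each list of other pathway genes, the 2 genes that fell most and the 2 that fell least or rose most are named. Comparisons of neighbouring timepoints by their bounds, and the lists of erythroid, liver, epithelial, mesenchymal, smooth muscle, leukocyte, pancreatic and stomach markers, have no test. Alternatives were other pseudocounts, FPKM limits, scalings, entries and phase limits, and leaving out each timepoint. 1 erythroid marker is not reported here and was left out of its list.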

Additional observations from a re-analysis of the deposited data

Results flagged for a closer look

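Ccnd1 was at 20.5 FPKM at D1, below the other Ph2 values by a gap of 0.638 of the range of that phase, above the critical 0.625 for 6 samples. Of 98 groups of values examined this was 1 case, where chance alone gives about 1 in 20.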

How the results depend on the processing

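No paired analysis was possible because the labels give no replicate numbers and each timepoint has 1 library. The F test (48 members) and the contrast of Ph2 against Ph1 (46 lower, 1 higher) kept these numbers within 1.5 times under every alternative run. In Ph3 against Ph2, the 37 lower members became 6 with median-ratio scaling, 4 with quantile normalization and 24 with a fixed FPKM sum without the 10 highest genes, and 9 to 43 when 1 timepoint was left out (9 without W6 and 19 without W8). The cause was not tested. The 39 members falling within Ph1 became 24 to 42 when 1 Ph1 timepoint was left out (24 without E17.5). The 1 member falling within Ph2, Ccnd3, became 0 with a pseudocount of 0.1 or 0.5, an FPKM limit of 0.5, or no filter. The number was also 0 with any of the 3 other scalings, the log2 of days as time, or any 1 Ph2 timepoint left out (range 0 to 0).

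For single genes, the sign turned in 8 cases. In Ph3 against Ph2, Cenpe became 0.12 with quantile normalization and Ccnd1 became 0.22 with median-ratio scaling. When 1 timepoint was left out, Cdkn1a ranged in that contrast from -0.13 (without W3) to 0.34 (without W8). With median-ratio scaling it was 0.68. In Ph2 against Ph1, Cdkn1b became 0.14 with median-ratio scaling and 0.047 with quantile normalization. As slopes per day within Ph1, Ccnd2 became 0.0067 and Ccnd3 0.0078 with median-ratio scaling, and Cdkn1b ranged from -0.049 (without E16.5) to 0.0037 (without E17.5). None of these values passed its threshold before or after. Of the other results for single genes and alternatives, 2910 kept their direction and side of the threshold, 236 kept the direction and lost the call, and 31 gained one. Read depth is not stated, and bounds of the lowest members are wide, so changes of Ccne2, Cdc25c and Cdk6 in Ph3 are the least precise.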
